A study of Mus musculus with 6 samples.

Results

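The genes described here encode the initiation and elongation factors of cytosolic translation, with the kinases, inhibitors and modifying enzymes that carry an Eif or Eef name. They were chosen by name from a table of 18446 genes measured by RNA sequencing: each protein-coding symbol that begins with Eif or Eef and a digit was taken, Eif2ak2 was left out, and a mean of at least 1 FPKM (fragments per kilobase of transcript relative to all mapped fragments) over the libraries was required. This gave 64 genes, and 63 members once the copies Eif3j1 and Eif3j2, which share sequence, were summed, among 10346 genes that met the same minimum. Eif4a3l1, Eef1akmt3 and Eif4e1b, with means of 0.045, 0.0733 and 0.335 FPKM, fell under the minimum. Just inside it stood Eif2s3y, Eef2k and Eif5a2, with means of 1.21, 1.87 and 2.56 FPKM.

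Naive CD4+ T cells, sorted as CD44lo CD62Lhi from spleen and lymph nodes, came from C57BL/6 mice of 6 to 8 weeks. Libraries labelled Zak-KO, whose genotype is given as Zak-/-, and wild-type (WT) libraries were each made at 0, 6 and 48 h of culture with anti-CD3 and anti-CD28, antibodies that trigger the T cell receptor and its costimulator. The labels also speak of a deficiency restricted to T cells, and neither the Cre driver nor the number of mice behind a library is given in the sources used here. Each of the 6 groups had 1 library, so no single difference between 2 libraries has a replicate check. Zak is the stress kinase encoded by Map3k20, which senses stalled and colliding ribosomes.

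Translation begins when eIF2, carrying initiator tRNA and GTP, joins the small ribosomal subunit together with eIF1, eIF1A, eIF5 and the scaffold eIF3. The mRNA is brought by eIF4F, made of the cap-binding protein eIF4E, the helicase eIF4A and the scaffold eIF4G, and the 4E-binding proteins hold eIF4E inactive until mTORC1 phosphorylates them. Spent eIF2 is recharged by its exchange factor eIF2B, a step that the eIF2 kinases block under stress. During elongation eEF1A delivers aminoacyl tRNA, eEF1B recharges it, eEF2 moves the ribosome along, and eIF5A, which carries the modified lysine hypusine, relieves pauses. Resting T cells make little protein, and stimulation through CD3 and CD28 is known to raise their rate of translation sharply.

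FPKM summed to between 496045 and 546113 per library, with 1777 to 2793 genes listed at 0; the number of reads behind each library is not known from these values. Map3k20 (chromosome 2, 72285637 to 72442610, GRCm38.p6) stood at 0.10, 0.10 and 1.61 FPKM at 0, 6 and 48 h in the libraries labelled Zak-KO, and at 0.17, 0.19 and 1.35 FPKM in WT. At 48 h its level was thus not lower under the Zak-KO label, and that label is used here only as a label. The 8 CD4 T cell markers that could be matched summed to between 2065 and 2476 FPKM. Naive markers summed to 3220.1, 1819 and 626 FPKM at 0, 6 and 48 h under the Zak-KO label and to 3252, 1870.3 and 624 FPKM in WT. Markers of cycling cells summed to 2.46, 1.95 and 286 FPKM under the Zak-KO label and to 2.22, 1.94 and 332 FPKM in WT, so they were at their resting level at 6 h. The part of these marker changes in the 48 h results was not tested. The 5 B cell markers summed to 6.98, 5.27 and 7.25 FPKM under the Zak-KO label, against 3.27, 4.75 and 5.38 FPKM in WT, higher at each time, and their part in the differences between the labels was not tested. The CD8 markers summed to 8.88 to 12.8 FPKM over the libraries, of which Cd8b1 gave 8.11 to 12.04 FPKM. The 5 myeloid markers summed to at most 1.33 FPKM and the 3 NK cell markers to at most 0.60 FPKM. Regulatory T cell markers stood higher, with sums of 88.72, 95.99 and 70.67 FPKM under the Zak-KO label. In WT they summed to 70.06, 91.76 and 77.47 FPKM. Ctla4, the largest part of each sum, was at 67.89, 47.72 and 61.24 FPKM under the Zak-KO label and at 52.02, 47.86 and 70.39 FPKM in WT. Foxp3 was at 15.99, 44.67 and 7.65 FPKM under the Zak-KO label and at 14.06, 40.31 and 5.9 FPKM in WT. Ikzf2 was at 4.84, 3.6 and 1.78 FPKM under the Zak-KO label and at 3.98, 3.59 and 1.18 FPKM in WT. At 6 h Foxp3 thus stood above rest, and Ctla4 and Ikzf2 below it, under both labels. The part of regulatory T cells in the results was not tested.

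Most translation factor genes rose within 6 h of stimulation and stood above rest at 48 h: 40 of 63 were called higher at 6 h and 45 at 48 h. Eif4ebp1, the mTORC1-controlled brake on eIF4E, rose the most, followed by Eif5a. The 63 members had a median log2 change of 0.41 at 6 h and 0.63 at 48 h in the libraries labelled Zak-KO, against medians of -0.08 and 0.06 over all 10346 genes. In WT the member medians were 0.48 and 0.72, against -0.06 and 0.00 over all genes. In bulk samples such as these, a change in the share of cells of a type and a change in RNA per cell cannot be told apart.

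Time was tested with limma on log2(FPKM+1), in a fit with terms for time and label over all genes, so that each time has 2 libraries and the spread is how far the labels depart from a parallel course. At 6 h, 40 members were called higher than at 0 h and 5 lower (Benjamini-Hochberg adjusted p below 0.05), with 18 not called; over all genes 26.3% were called higher and 30.4% lower. At 48 h, 45 were called higher and 8 lower, with 10 not called, against 39% and 35.3% of all genes. By size alone, 14 members were at least 2-fold higher at 6 h under both labels (7.64% of all genes) and 0 at least 2-fold lower (0.512%). At 48 h, 18 members were at least 2-fold higher under both labels (16.4% of all genes) and 1, Eif2ak3, at least 2-fold lower (10.2%). Without the Zak-KO or the WT library of 0 h the lower calls numbered 3 at 6 h, and 4 or 5 at 48 h, and the higher calls at 6 h numbered 30 or 27. Over all libraries left out in turn, higher calls numbered 27 to 41 at 6 h and 41 to 45 at 48 h. Rescaling by upper quartile gave 8 lower calls at 6 h.

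**Figure D1:**
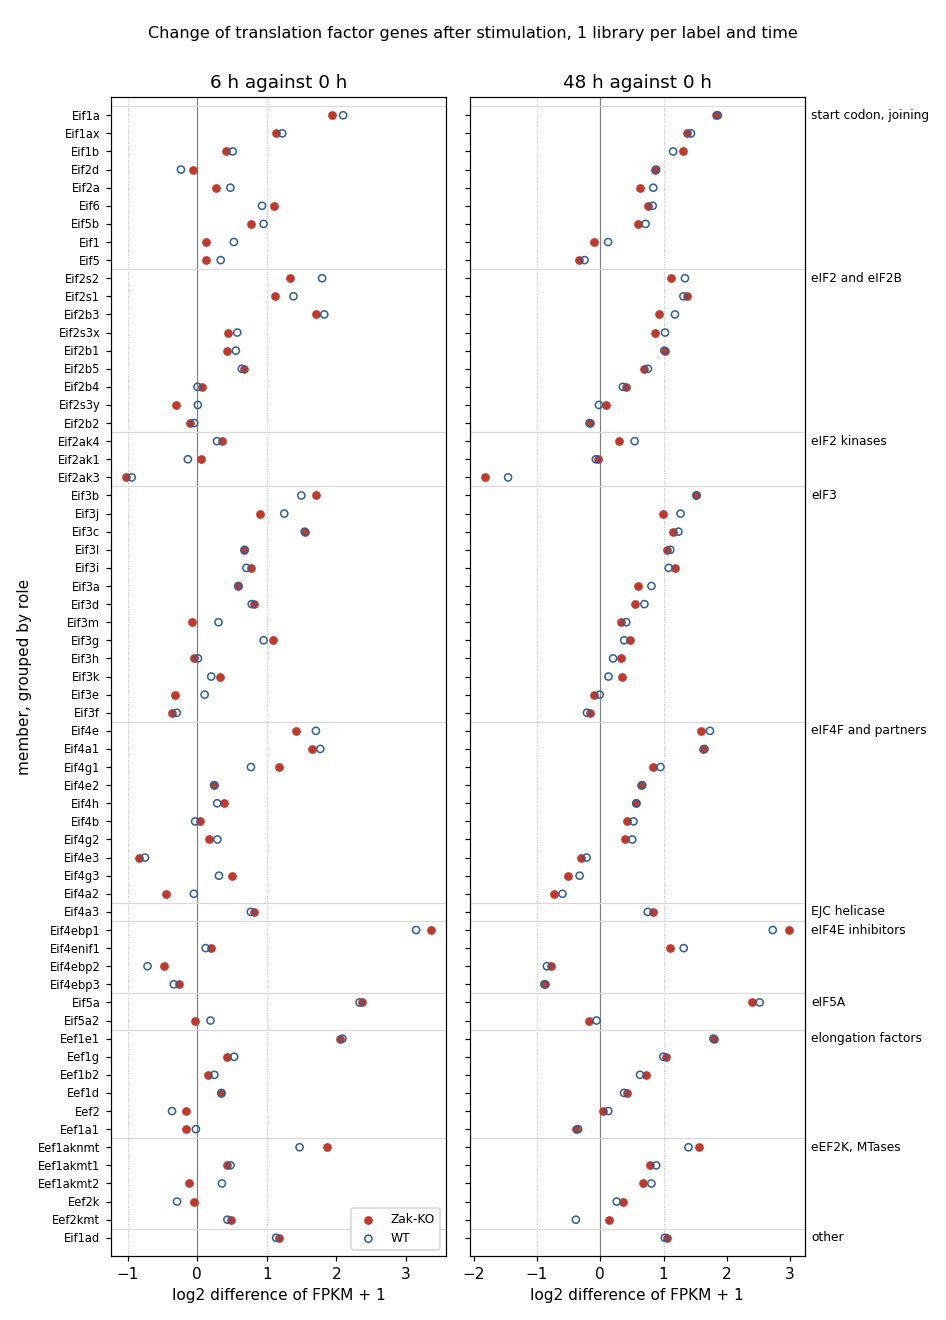
Log2 difference in FPKM + 1 for each of the 63 members at 6 h (left) and 48 h (right) against 0 h, grouped by role, with filled red points for the Zak-KO label and open blue points for WT (1 library each). Most points lie right of 0 in both panels, Eif4ebp1 and Eif5a lie farthest right, Eif2ak3 lies farthest left at 48 h, and the points of both labels mostly lie close together.

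The promoters of members that moved in opposite directions are shown because the E-box CACGTG, the site bound by Myc and Max, was searched in them; it is its own reverse complement, so both strands were read at once. RefSeq windows from 250 bases before to 50 bases after each start (GRCm38.p6) were found for 50 of the 63 members. The letters occurred in 13 of these 50 (26%), in 1021 of 8399 tested genes with a window (12.2%) and in 2187 of all 27025 genes with a window (8.09%). Counted by window, they occurred in 15 of 65 windows of members (23.1%) and in 2349 of 32851 windows of all genes (7.15%). A match describes the sequence and shows no binding. The stretches below, 5′ to 3′ with the E-box in capitals, come from 3 genes that rose (Eif4a1, Eif5a and Eif4e), from the elongation factor gene Eef2, which was not called at 6 or 48 h, and from Eif4a2, which fell at 48 h and had no match in its window. Eif5a has 6 windows, of which 3 hold the E-box, and Eif4e has 2, of which 1 does; the stretches shown for this pair are from starts inside the gene.
Eif4a1 (chr11:69672567-69672652, minus strand): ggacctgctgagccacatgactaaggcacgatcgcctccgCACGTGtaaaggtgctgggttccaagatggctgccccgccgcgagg
Eif5a (chr11:69921415-69921500, minus strand): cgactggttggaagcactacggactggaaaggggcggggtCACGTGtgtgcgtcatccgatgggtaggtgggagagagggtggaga
Eif4e (chr3:138527018-138527085, plus strand): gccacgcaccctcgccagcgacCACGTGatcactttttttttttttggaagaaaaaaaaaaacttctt
Eef2 (chr10:81176548-81176630, plus strand): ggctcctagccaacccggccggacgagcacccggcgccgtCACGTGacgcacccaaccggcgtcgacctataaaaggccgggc
Eif4a2 (chr16:23107382-23107467, plus strand): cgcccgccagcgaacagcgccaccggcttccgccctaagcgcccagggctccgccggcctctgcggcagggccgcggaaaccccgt
At 48 h the E-box was found in 9 of 35 windowed members called higher, 0 of 6 called lower and 4 of 9 not called. At 6 h the counts were 9 of 31 called higher, 1 of 3 called lower and 3 of 16 not called.

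Among the 10 genes of eIF4F and its partners, 7 were called higher (26.3% of all genes), 1 lower (30.4%) and 2 not at 6 h. Later, at 48 h, 7 were called higher (39% of all genes) and 3 lower (35.3%). At 48 h the helicase genes Eif4a1 and Eif4a2 had moved in opposite directions. Eif4a1 (chromosome 11, 69666936 to 69672423) was at 169.9, 537 and 524 FPKM at 0, 6 and 48 h under the Zak-KO label and at 175, 599 and 551 FPKM in WT. Its level at both later times was above both resting values, and it rose 3.27-fold at 6 h and 3.10-fold at 48 h (SE 0.07 on the log2 scale, adjusted p = 1.53e-05 and 6.01e-06). Eif4a2 (chromosome 16, 23107468 to 23114132) was at 331, 241 and 199 FPKM under the Zak-KO label and at 307, 296 and 203 FPKM in WT. Both 48 h libraries were below every other one, and the gene fell 1.58-fold at 48 h (adjusted p = 0.00153). At 6 h it was not called (log2 change -0.25, SE 0.11, adjusted p = 0.0852), although 5 other settings called it. Its log2 change at 6 h was -0.46 under the Zak-KO label and -0.05 in WT. Eif4a1 made up 33.9%, 69.0% and 72.4% of the summed FPKM of Eif4a1 and Eif4a2 under the Zak-KO label, and 36.4%, 66.9% and 73.1% in WT, so the prevailing helicase transcript changed within 6 h. The sum itself was 501, 777 and 724 FPKM under the Zak-KO label and 482, 895 and 754 FPKM in WT. In the reference transcripts 65.3% of the 50-base sequences of Eif4a1 also occur in other genes, mostly in the pseudogene Eif4a-ps4, so its level is uncertain. Eif4a3, the related helicase of the exon junction complex, was at 69.5, 123 and 125 FPKM under the Zak-KO label and at 73.4, 126 and 124 FPKM in WT. It rose 1.73-fold at both times (adjusted p = 2.31e-04 at 6 h and 8.21e-05 at 48 h).

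The cap-binding genes also diverged. Eif4e (chromosome 3, 138526191 to 138559696), the cap-binding subunit itself, was at 28.6, 78.1 and 88.6 FPKM under the Zak-KO label and at 28.4, 94.9 and 96.8 FPKM in WT. It rose 2.95-fold at 6 h and 3.17-fold at 48 h (SE 0.09, adjusted p = 4.99e-05 and 1.29e-05), and every later library exceeded both resting ones. Eif4e2, a cap-binding homolog known for repressing translation, was at 41.2, 48.6 and 64.9 FPKM under the Zak-KO label and at 44.1, 52.3 and 70.4 FPKM in WT. It stood above Eif4e at rest and below it at both later times, and it rose 1.18-fold at 6 h (adjusted p = 0.0242) and 1.57-fold at 48 h (adjusted p = 1.94e-04). The 6 h call of Eif4e2 was lost under 5 of 16 other settings, with adjusted p of up to 0.158. Eif4e3 was at 8.77, 4.48 and 6.89 FPKM under the Zak-KO label and at 8.75, 4.79 and 7.40 FPKM in WT. It fell 1.73-fold at 6 h (adjusted p = 8.4e-04), and a smaller fall at 48 h (1.20-fold, adjusted p = 0.0417) was lost under 5 settings, with adjusted p of up to 0.256. The scaffold gene Eif4g1 was at 58.5, 134 and 105.0 FPKM under the Zak-KO label and at 60.5, 104 and 118 FPKM in WT. It rose 1.97-fold at 6 h and 1.86-fold at 48 h (SE 0.13, adjusted p = 0.00135 and 9.52e-04). Eif4g2, also called DAP5, which lacks the eIF4E-binding site, was at 107, 121 and 140.5 FPKM under the Zak-KO label and at 105, 129 and 149.9 FPKM in WT. It rose 1.36-fold at 48 h (adjusted p = 0.00141), while its 6 h call (1.17-fold, adjusted p = 0.0315) was lost under 7 settings, with adjusted p of up to 0.265. Eif4g3 was at 46.3, 65.6 and 32.2 FPKM under the Zak-KO label and at 45.5, 56.7 and 36.1 FPKM in WT, above rest at 6 h and below rest at 48 h under both labels. Its rise at 6 h (1.32-fold, adjusted p = 0.0158) and its fall at 48 h (1.34-fold, adjusted p = 0.00916) were both lost without either 0 h library, with adjusted p of up to 0.108 and 0.0686 over all settings.

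Of the 4 inhibitors of eIF4E, 1 was called higher (26.3% of all genes) and 2 lower (30.4%) at 6 h. At 48 h 2 were called higher (39% of all genes) and 2 lower (35.3%). Eif4ebp1 (chromosome 8, 27260327 to 27275656) was at 6.16, 72.1 and 55.8 FPKM under the Zak-KO label and at 7.44, 73.6 and 54.8 FPKM in WT. It rose 9.50-fold at 6 h and 7.24-fold at 48 h (log2 changes 3.25 and 2.86, SE 0.09, adjusted p = 6.59e-06 and 2.15e-06), the largest change of any member at both times. Eif4ebp2 (chromosome 10, 61428491 to 61452790), the prevailing 4E-binding protein transcript at rest, was at 126, 90.3 and 72.9 FPKM under the Zak-KO label and at 134, 81.1 and 74.2 FPKM in WT. It fell 1.51-fold at 6 h and 1.76-fold at 48 h (SE 0.08, adjusted p = 0.00153 and 1.8e-04). Eif4ebp3, a target of the TFE3 transcription factor, was at 26.6, 21.9 and 14.1 FPKM under the Zak-KO label and at 27.0, 21.1 and 14.2 FPKM in WT. It fell 1.83-fold at 48 h (adjusted p = 9.24e-05), and its 6 h fall of 1.23-fold (adjusted p = 0.0158) was lost without the Zak-KO 0 h, the WT 0 h or the WT 6 h library, with adjusted p of 0.0528 to 0.135. In the reference 65.5% of its 50-base sequences occur in another annotated gene. Eif4enif1, which carries eIF4E to the nucleus and to P-bodies, was called at 48 h only, 2.31-fold higher (SE 0.09, adjusted p = 5.26e-05).

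The summed FPKM of the 3 binding-protein genes was 159, 184 and 143 under the Zak-KO label and 168, 176 and 143 in WT. Per unit of Eif4e this made 5.55, 2.36 and 1.61 under the Zak-KO label and 5.92, 1.85 and 1.48 in WT. The transcript ratio of binding proteins to eIF4E was thus lowest at 48 h under both labels, although Eif4ebp1 had the largest rise. Within the sum Eif4ebp1 accounted for 3.88%, 39.1% and 39.1% under the Zak-KO label and for 4.42%, 41.9% and 38.3% in WT. These are transcript ratios, and protein and phosphorylation were not measured.

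**Figure D2:**
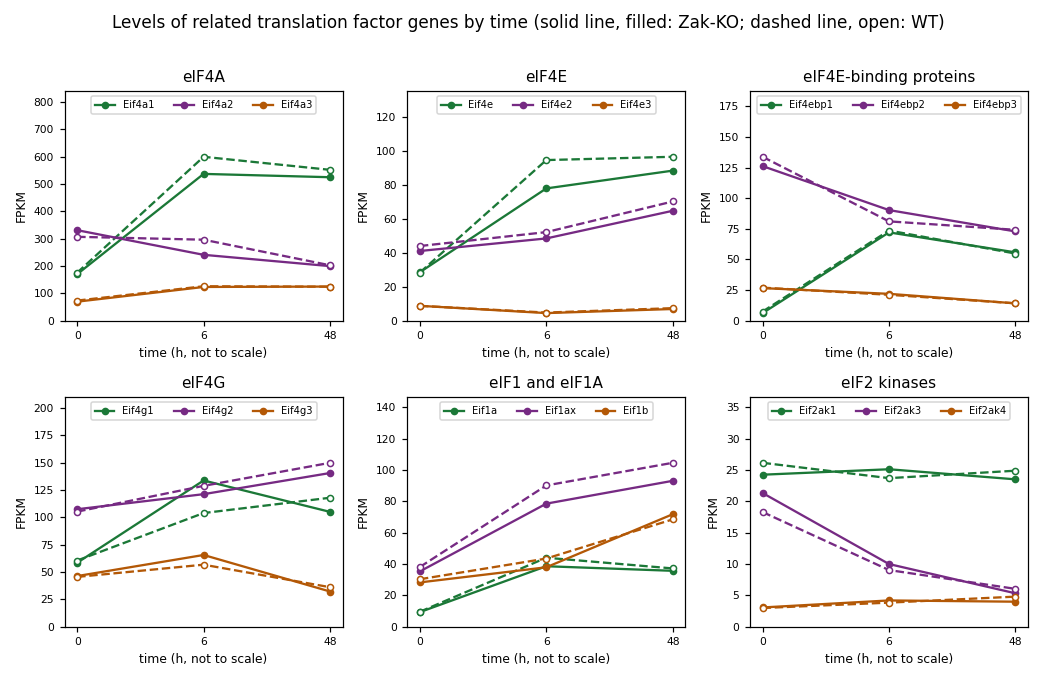
FPKM (linear axes from 0) of 18 members in 6 related sets at 0, 6 and 48 h, with solid lines and filled points for the Zak-KO label and dashed lines and open points for WT, 1 library per point. Eif4a1 crosses above Eif4a2, Eif4e crosses above Eif4e2, and Eif4ebp1 rises to near the falling Eif4ebp2, under both labels.

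**Figure D3:**
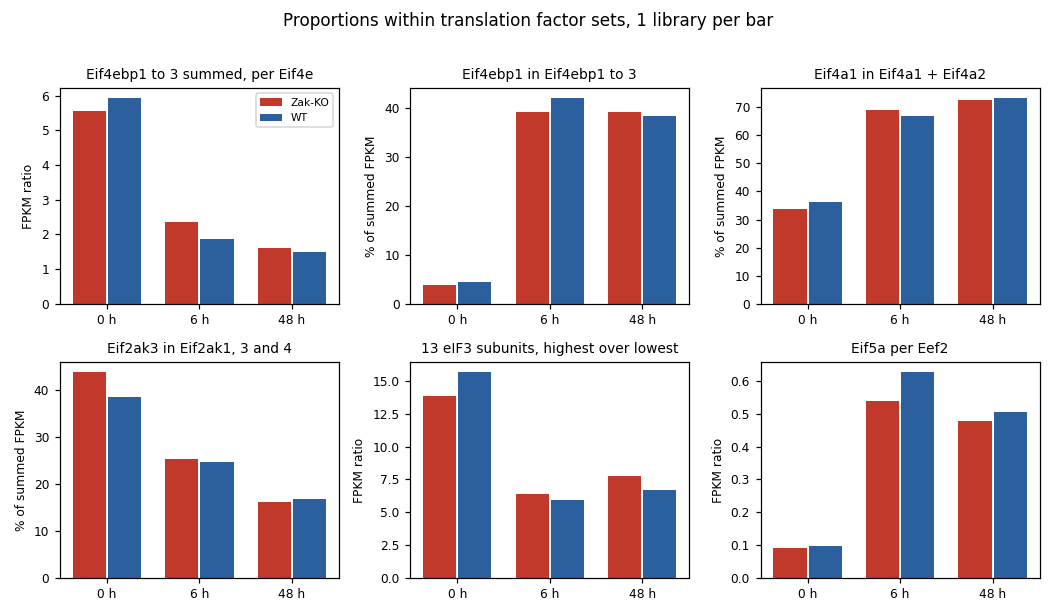
Ratios and shares of FPKM within 6 sets of members, with bars for the Zak-KO label (red, left) and WT (blue, right) at each time, 1 library per bar and axes from 0. The binding-protein sum per Eif4e and the Eif2ak3 share stand lower at each later time, while the Eif4ebp1 and Eif4a1 shares and Eif5a per Eef2 stand higher at both later times than at 0 h.

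Of the 9 factors of start codon selection and subunit joining, 8 were called higher (26.3% of all genes) and 0 lower (30.4%) at 6 h. At 48 h 7 were called higher (39% of all genes) and 1 lower (35.3%). Eif1, whose product enforces start codon fidelity and which was the most abundant of them, was at 629.6, 688 and 588 FPKM under the Zak-KO label and at 541, 779 and 589.6 FPKM in WT. Its 6 h rise of 1.25-fold (adjusted p = 0.0389) was lost under 5 settings, with adjusted p of up to 0.370, and at 48 h it was not called (log2 change 0.01, SE 0.11). The eIF1A genes changed far more. Eif1a was at 9.30, 38.6 and 35.6 FPKM under the Zak-KO label and at 9.53, 44.0 and 37.2 FPKM in WT. It rose 4.05-fold at 6 h and 3.59-fold at 48 h (SE 0.08, adjusted p = 1.34e-05 and 6.13e-06). Its X-linked paralog Eif1ax was at 35.3, 78.5 and 93.0 FPKM under the Zak-KO label and at 38.1, 90.1 and 104.5 FPKM in WT, a rise of 2.26-fold at 6 h and 2.65-fold at 48 h (SE 0.07, adjusted p = 5.62e-05 and 9.51e-06). Eif1a therefore made up 20.9%, 32.9% and 27.7% of the pair under the Zak-KO label and 20.0%, 32.8% and 26.2% in WT, and the longest reference transcripts of the pair share no 50-base sequence. Eif1b, a close paralog of Eif1, was at 28.2, 37.9 and 71.7 FPKM under the Zak-KO label and at 30.3, 43.5 and 68.4 FPKM in WT, and rose 1.38-fold at 6 h and 2.35-fold at 48 h (adjusted p = 0.00522 and 3.7e-05). Without either 0 h library the 6 h call of Eif1b was lost, with adjusted p of 0.0509 and 0.0590. Eif5, the GTPase-activating protein of eIF2, was at 120.1, 130.5 and 94.9 FPKM under the Zak-KO label and at 119, 149.99 and 99.8 FPKM in WT. It was called higher at 6 h (1.17-fold, adjusted p = 0.0476) and lower at 48 h (1.23-fold, adjusted p = 0.0142); the 6 h call was lost under 8 settings and the 48 h call without the Zak-KO 0 h or the WT 48 h library, with adjusted p of up to 0.350 and 0.155.

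In eIF2 and eIF2B, 6 of 9 genes were called higher at 6 h (26.3% of all genes) and 7 at 48 h (39%). None was called lower at 6 h (30.4% of all genes) or at 48 h (35.3%). Eif2s3x, which encodes the tRNA-binding gamma subunit of eIF2, was at 76.0, 104 and 139 FPKM under the Zak-KO label and at 73.0, 109 and 149 FPKM in WT. It rose 1.42-fold at 6 h and 1.92-fold at 48 h (SE 0.07, adjusted p = 0.00189 and 5.82e-05), and 36.2% of its 50-base sequences occur in other genes. Its Y-linked paralog Eif2s3y was low, at 1.49, 1.01 and 1.64 FPKM under the Zak-KO label and at 1.04, 1.05 and 1.01 FPKM in WT, and was not called at either time. Eif2b3, encoding the gamma subunit of the eIF2B catalytic subcomplex, rose the most of them at 6 h, at 6.92, 24.8 and 14.1 FPKM under the Zak-KO label and 6.97, 27.2 and 17.1 FPKM in WT. It rose 3.39-fold at 6 h and stood 2.08-fold above rest at 48 h (SE 0.09, adjusted p = 3.98e-05 and 1.02e-04). The highest eIF2B subunit exceeded the lowest 4.77-fold, 2.04-fold and 2.37-fold at 0, 6 and 48 h under the Zak-KO label and 4.93-fold, 1.67-fold and 2.05-fold in WT, so the 5 transcript levels lay closest together at 6 h.

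Of the 3 eIF2 kinase genes, 0 were called higher (26.3% of all genes) and 1 lower (30.4%) at 6 h. At 48 h 1 was called higher (39% of all genes) and 1 lower (35.3%). Eif2ak3 (chromosome 6, 70844484 to 70905241), which encodes PERK, the kinase of endoplasmic reticulum stress, was at 21.3, 10 and 5.33 FPKM under the Zak-KO label and at 18.3, 9.04 and 6.04 FPKM in WT. It fell 1.98-fold at 6 h and 3.11-fold at 48 h (log2 changes -0.98 and -1.64, SE 0.11, adjusted p = 7.85e-04 and 3.61e-05), the largest fall of any member at both times and one that held under all 16 other settings. Eif2ak1, the heme-regulated kinase, was at 24.3, 25.1 and 23.5 FPKM under the Zak-KO label and at 26.2, 23.7 and 24.9 FPKM in WT, and was not called. Eif2ak4, encoding the amino acid sensor GCN2, was at 3.07, 4.19 and 3.99 FPKM under the Zak-KO label and at 2.98, 3.84 and 4.8 FPKM in WT, a 1.34-fold rise at 48 h (adjusted p = 0.0207) that was lost under 5 settings, with adjusted p of up to 0.160. Eif2ak3 made up 43.8%, 25.4% and 16.2% of the summed FPKM of the 3 kinase genes under the Zak-KO label and 38.6%, 24.7% and 16.9% in WT.

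The 13 subunits of eIF3 lay closer together in level after stimulation. At 6 h 9 were called higher (26.3% of all genes) and 1 lower (30.4%). At 48 h 11 were called higher (39% of all genes) and 0 lower (35.3%). Eif3b and Eif3c, which were below most other subunits at rest, rose the most at both times. Eif3b (chromosome 5, 140419305 to 140443358), a core scaffold subunit, was at 47.8, 158 and 137 FPKM under the Zak-KO label and at 49.6, 142 and 144 FPKM in WT, and rose 3.04-fold and 2.85-fold (SE 0.08, adjusted p = 3.61e-05 and 1.48e-05). Eif3c, whose product binds eIF1 and eIF5, was at 76.1, 225 and 169 FPKM under the Zak-KO label and 76.6, 225 and 182 FPKM in WT, and rose 2.92-fold and 2.28-fold (SE 0.07, adjusted p = 1.96e-05 and 1.7e-05). Eif3h, the subunit with the highest mean over the 6 libraries, was at 327, 317 and 409 FPKM under the Zak-KO label and at 337, 339 and 388 FPKM in WT, was not called at 6 h, and rose 1.20-fold at 48 h (adjusted p = 0.0182), a call lost under 5 settings with adjusted p of up to 0.183. Eif3f was at 362, 280.3 and 324 FPKM under the Zak-KO label and at 369, 300.01 and 319 FPKM in WT, and was the subunit called lower at 6 h (1.26-fold, adjusted p = 0.00814), a call lost without either 0 h library (adjusted p of 0.0866 and 0.0917). At 48 h Eif3f missed the threshold (log2 change -0.18, adjusted p = 0.0505), and 8 other settings called it lower. Eif3g, an RNA-binding subunit, was at 95.2, 203 and 132 FPKM under the Zak-KO label and at 104, 203 and 136 FPKM in WT, a peak at 6 h. The highest subunit exceeded the lowest 13.9-fold, 6.41-fold and 7.73-fold at 0, 6 and 48 h under the Zak-KO label and 15.7-fold, 5.91-fold and 6.67-fold in WT. Without the loosely bound Eif3j the ratios were 7.57, 3.02 and 3.85 under the Zak-KO label and 7.44, 3.40 and 3.34 in WT. Over all members the SD of their log2 levels was 2.26, 2.23 and 2.23 under the Zak-KO label and 2.26, 2.26 and 2.25 in WT.

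Eif5a (chromosome 11, 69916712 to 69921958) was at 172, 895 and 912 FPKM under the Zak-KO label and at 179, 902 and 1027 FPKM in WT. It rose 5.10-fold at 6 h and 5.50-fold at 48 h (log2 changes 2.35 and 2.46, SE 0.07, adjusted p = 7.48e-06 and 2.02e-06), second among the members at both times. Its paralog Eif5a2, with which the longest transcript shares no 50-base sequence, was at 2.60, 2.51 and 2.19 FPKM under the Zak-KO label and 2.57, 3.07 and 2.43 FPKM in WT and was not called.

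Eef1a1, Eef2 and Eef1g had the highest mean levels of all members, and each of the 6 elongation factor genes had smaller changes than Eif5a at both times. Eef1a1 (chromosome 9, 78478453 to 78481724) was at 8716, 7802 and 6698 FPKM under the Zak-KO label and at 8819.9, 8693 and 6923 FPKM in WT. Its 48 h fall of 1.29-fold (SE 0.09, adjusted p = 0.0121) was lost without either 0 h library or with no filter on low values, with adjusted p of 0.136 to 0.263, and 59.2% of its 50-base sequences occur in other genes, so its level is uncertain. Eef2, the translocase, was at 1867, 1660.3 and 1914 FPKM under the Zak-KO label and at 1855, 1441 and 2027 FPKM in WT, lowest at 6 h under both labels. It was not called at 6 h (log2 change -0.27, SE 0.10, adjusted p = 0.0532), although 7 other settings called it lower there, nor at 48 h. Per unit of Eef2, Eif5a was at 0.0921, 0.539 and 0.477 under the Zak-KO label and at 0.0963, 0.626 and 0.507 in WT. The exchange factor genes Eef1b2, Eef1d and Eef1g rose at 48 h. Eef1g, a structural subunit of eEF1B, was at 662, 886 and 1359 FPKM under the Zak-KO label and at 686, 989 and 1369 FPKM in WT, a 2.02-fold rise at 48 h (SE 0.08, adjusted p = 5.12e-05), and 64.3% of its 50-base sequences occur in other genes. Eef1e1 (chromosome 13, 38645691 to 38659028), also called AIMP3, belongs to the aminoacyl-tRNA synthetase complex rather than to elongation proper. It was at 14.6, 63.4 and 53.0 FPKM under the Zak-KO label and at 16.1, 71.6 and 58.0 FPKM in WT, and rose 4.19-fold at 6 h and 3.46-fold at 48 h (SE 0.07, adjusted p = 8.5e-06 and 4.06e-06).

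Of eEF2 kinase and the 4 methyltransferases of elongation factors, 3 were called higher at each time and 0 lower. The shares of all genes were 26.3% higher and 30.4% lower at 6 h, and 39% and 35.3% at 48 h. Eef1akmt1, the most abundant of them, was at 14.9, 20.4 and 26.4 FPKM under the Zak-KO label and at 14.1, 20.1 and 26.9 FPKM in WT, and rose 1.78-fold at 48 h (SE 0.08, adjusted p = 1.21e-04). Eef1aknmt, also called METTL13, which methylates eEF1A, was at 3.61, 15.7 and 12.5 FPKM under the Zak-KO label and at 4.37, 13.9 and 13.1 FPKM in WT. It rose 3.17-fold at 6 h and 2.78-fold at 48 h (SE 0.12, adjusted p = 1.11e-04 and 6.06e-05). Eef2k, the kinase that inactivates eEF2, stood at 1.19 to 2.61 FPKM and was not called at either time. Eif1ad, which matched the name rule, rose 2.23-fold at 6 h and 2.05-fold at 48 h (SE 0.07, adjusted p = 6.76e-05 and 3.3e-05).

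Some mRNAs begin with a terminal oligopyrimidine (TOP) tract, the element through which mTORC1 controls their translation. Members listed here as known examples were Eef1a1, Eef1b2, Eef1d, Eef1g, Eef2, Eif3e, Eif3f, Eif3h and Eif4b. The list was not checked for completeness, so the 54 other members may include further TOP mRNAs. Of these 9, 2 were called higher and 1 lower at 6 h (median log2 change -0.02), and 5 higher and 1 lower at 48 h (median 0.26). The 54 members not on this list had 38 called higher and 4 lower at 6 h (median 0.47). At 48 h they had 40 called higher and 7 lower (median 0.74). Called shares over all genes were 26.3% higher and 30.4% lower at 6 h, and 39% and 35.3% at 48 h. Together the listed TOP members, with Eef1a1 the largest part, stood at 13099, 12156 and 12289 FPKM under the Zak-KO label and 13248, 13107 and 12619.9 FPKM in WT. All members together made up 3.35%, 3.56% and 3.30% of the summed FPKM under the Zak-KO label and 3.33%, 3.61% and 3.46% in WT. Without Eef1a1 the shares were 1.59%, 2.02% and 2.08% under the Zak-KO label and 1.57%, 1.99% and 2.18% in WT, higher at both later times.

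At 48 h against 6 h, 22 members were called higher (29.8% of all genes) and 14 lower (30% of all genes), with 27 not called. Without a filter on low values the lower calls numbered 9. The largest drops were in Eif4g3 (1.77-fold, log2 change -0.82, SE 0.10, adjusted p = 8.1e-04), Eif2b3 (1.63-fold, adjusted p = 0.0011), Eif2ak3 (1.57-fold, adjusted p = 0.00337) and Eif3g (1.51-fold, adjusted p = 6.81e-04). Eef2kmt, which encodes the methyltransferase of eEF2, was at 11.2, 16.1 and 12.5 FPKM under the Zak-KO label and at 11.2, 15.5 and 8.35 FPKM in WT, a log2 change of -0.58 at 48 h against 6 h (SE 0.14, adjusted p = 0.0131). This call of Eef2kmt was lost without the WT 6 h or the WT 48 h library or with no filter, with adjusted p of up to 0.0771. The largest rises were in Eif4enif1 (2.08-fold, SE 0.09, adjusted p = 2.09e-04) and in Eif2d, which encodes a non-canonical initiation and recycling factor (2.03-fold, SE 0.08, adjusted p = 1.72e-04). Eif2d was at 18.2, 17.4 and 33.9 FPKM under the Zak-KO label and at 19.3, 16.2 and 36.3 FPKM in WT, so its rise came after 6 h under both labels.

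Between the labels the members differed far less than between times. By limma on all libraries, with the label effect averaged over the 3 times, 0 members and 0 of all 10346 genes (0%) were called in either direction. The absence over all genes was not stable: without the Zak-KO 48 h or the WT 48 h library some genes were called, but no member. In the fit of all libraries 5 members, all lower under the Zak-KO label, and 503 genes had an unadjusted p under 0.05. A fit without the time term also called 0 members. No member differed by 2-fold between the labels at 0 h (0.251% of all genes did), at 6 h (0.232%) or at 48 h (2.22%). At 0, 6 and 48 h the median member differed by a factor of 1.041, 1.092 and 1.059, against 1.059, 1.102 and 1.061 for the median gene of all. Members lower under the Zak-KO label numbered 39 at 0 h, 38 at 6 h and 51 at 48 h of 63, where 51.9%, 53.1% and 53.9% of all genes were lower. The medians of the members were -0.02, -0.08 and -0.07 on the log2 scale at 0, 6 and 48 h, against -0.01, -0.02 and -0.01 over all genes. Rescaling moved members and all genes together: with a common sum the 6 h medians were 0.00 for the members, 30 of which were lower, and 0.05 for all genes. At 48 h the medians were -0.09 for the members and -0.03 for all genes with a common sum, -0.10 and -0.04 by median ratio, and -0.059 and -0.0022 by upper quartile, with 53, 57 and 47 members lower. At all 3 times 18 members (28.6%) were lower and 2 (3.17%) higher under the Zak-KO label, where 1691 (16.3%) and 1145 (11.1%) of all genes were.

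The lowest mean differences between the labels were those of Eif2a, Eif2s1, Eif2b1 and Eif1ax. Eif2a, a non-canonical carrier of initiator tRNA, was at 22.1, 26.7 and 34.7 FPKM under the Zak-KO label, against 23.1, 32.5 and 42.0 FPKM in WT (mean log2 difference -0.20, SE 0.07). Eif2s1, the subunit phosphorylated by the eIF2 kinases, was at 20.9, 46.2 and 55.6 FPKM under the Zak-KO label, against 22.9, 61.2 and 58.4 FPKM in WT (mean -0.20, SE 0.08). Eif2b1, the regulatory alpha subunit of eIF2B, was at 11.8, 16.2 and 25.1 FPKM under the Zak-KO label, against 13.2, 19.9 and 27.8 FPKM in WT (mean -0.19, SE 0.07). These genes and Eif1ax (mean -0.16, SE 0.06) were lower at each time, and limma's adjusted p was 0.834 for all of them. The highest means were those of Eif2s3y (0.22, SE 0.13), Eef2kmt (0.19, SE 0.12), Eef2k (0.19, SE 0.11) and Eif2ak3 (0.06, SE 0.09), with adjusted p of 0.834 for the first 3 and 0.888 for Eif2ak3. Eef2k was at 1.82, 1.73 and 2.61 FPKM under the Zak-KO label, against 1.68, 1.19 and 2.21 FPKM in WT, and was higher at each time, at levels close to the minimum. Eif2s3y, at 1.01 to 1.64 FPKM, was also close to the minimum, and at 6 h it was not higher under the Zak-KO label (1.01 against 1.05 FPKM). Among other Y-linked genes, Kdm5d was at 0 to 0.06 FPKM, Ddx3y at 0.07 to 0.17 FPKM and Uty at 0.57 to 1.29 FPKM over the 6 libraries.

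**Figure D4:**
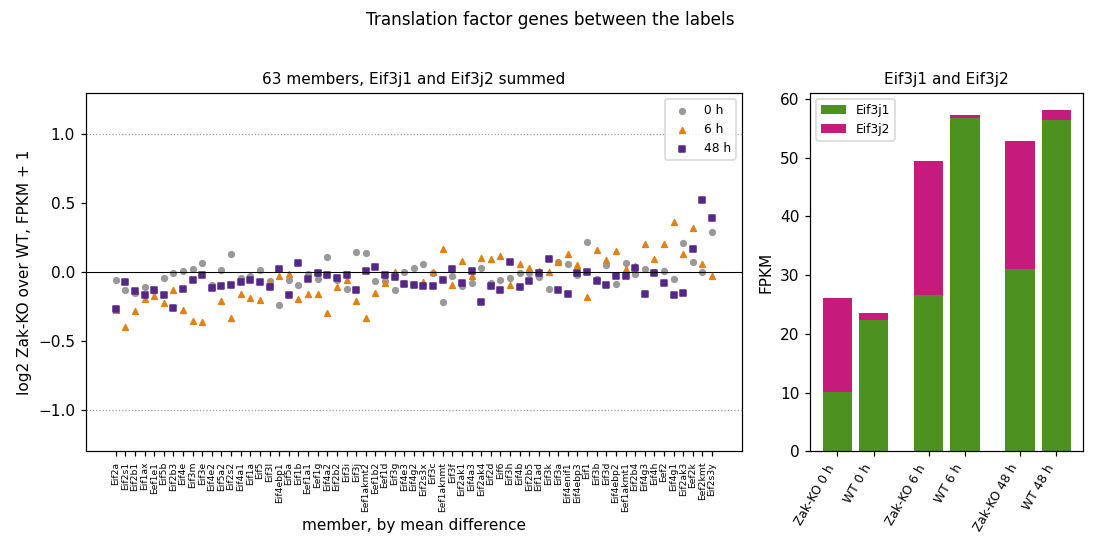
Left, log2 difference in FPKM + 1 of the Zak-KO label over WT for each of the 63 members at 0, 6 and 48 h, ordered by mean, with dotted lines at a 2-fold difference. Right, FPKM of Eif3j1 and Eif3j2 stacked in each library: no member reaches a dotted line, and the Eif3j2 portion is large in the 3 libraries labelled Zak-KO and small in WT.

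Eif3j, the loosely attached eIF3 subunit that binds near the decoding site of the small ribosomal subunit, is listed under a pair of copies whose values were divided differently under each label. Eif3j1 (chromosome 2, 122028580 to 122053632) was at 10.16, 26.7 and 31.0 FPKM under the Zak-KO label, against 22.4, 56.7 and 56.4 FPKM in WT. Eif3j2 (chromosome 18, 43475418 to 43477836) was at 15.95, 22.7 and 21.9 FPKM under the Zak-KO label, against 1.11, 0.62 and 1.73 FPKM in WT. Eif3j1 made up 38.9%, 54.0% and 58.5% of the pair under the Zak-KO label and 95.3%, 98.9% and 97.0% in WT. The sum differed far less between the labels, at 26.1, 49.4 and 52.9 FPKM under the Zak-KO label and 23.6, 57.4 and 58.2 FPKM in WT. Taken as separate genes, Eif3j1 was lower (log2 difference -0.99, SE 0.07, adjusted p = 0.0362) and Eif3j2 higher under the Zak-KO label (3.32, SE 0.18, adjusted p = 0.0129), 2 of the 3 genes called among 10347. Of the 50-base sequences of Eif3j2, 90.8% also occur in Eif3j1, so the split between the copies is uncertain. Of those of Eif3j1, 39.4% occur in Eif3j2. Map3k20 also lies on chromosome 2, and any part of that position in the split was not tested. The sum rose 2.10-fold at 6 h and 2.19-fold at 48 h (SE 0.10, adjusted p = 3.59e-04 and 1.07e-04).

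Other genes of translation, inhibitors and regulators of mTORC1 among them, were counted beside the members. Of 44 such genes, 22 were called higher (26.3% of all genes) and 4 lower (30.4%) at 6 h. At 48 h 21 were called higher (39% of all genes) and 8 lower (35.3%). Their median log2 changes were 0.26 at 6 h and 0.25 at 48 h, against -0.08 and 0.03 over all genes. Pdcd4, whose product inhibits eIF4A, was at 146, 76.3 and 58.7 FPKM under the Zak-KO label and at 155, 84.1 and 59.9 FPKM in WT. It fell 1.87-fold at 6 h and 2.52-fold at 48 h (adjusted p = 1.53e-04 and 1.17e-05). Tsc1, a negative regulator of mTORC1, and Rptor, a subunit of mTORC1, fell 2.13-fold and 1.87-fold at 48 h (adjusted p = 2.55e-04 and 4.63e-04). Ppp1r15a, encoding the inducible phosphatase subunit for eIF2, rose 1.28-fold at 6 h (adjusted p = 0.00679) and fell 2.16-fold at 48 h (adjusted p = 2.74e-05). The largest rises at 48 h were those of Tsfm and Tufm, mitochondrial elongation factors (3.33-fold and 2.30-fold, adjusted p = 4.23e-05 and 1.58e-05), Pabpc4, a poly(A)-binding protein (2.71-fold, adjusted p = 2.45e-05), and Gspt1, the release factor eRF3 (2.23-fold, adjusted p = 2.6e-05).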

How the data were processed

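RNA sequencing was done by BGI on an Illumina HiSeq, per the labels' protocols. The deposited values are FPKM, 1 per gene and library; reads were mapped with Bowtie and levels estimated with RSEM on mm10, per the submitters' processing notes, with versions and settings not given in the sources used here. Of 18446 genes, 18326 matched a symbol in RefSeq's gene table, 120 matched none, and 0 columns were left out. FPKM is scaled to each library's mapped fragments, so a level is relative to the other genes, and reads of near-identical copies may be split between them. Depth is unknown.

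Values were analysed as log2(FPKM+1) without rescaling, which understates changes of low genes, for 10346 genes with a mean of at least 1 FPKM. limma 3.58.1 in R 4.3.3 (trended prior variance) fitted time and label as additive terms over all 6 libraries, with 2 residual and 4.12 prior degrees of freedom, and p-values were adjusted over all genes by the Benjamini-Hochberg method (called below 0.05). Standard errors (SE) are on the log2 scale. The labels do not say that libraries came from separate mice, so p-values measure only the spread between these libraries. The fit was tested on simulated data with changes of 2 sizes at 6 h, where it missed all of the smaller ones and part of the larger ones. Far fewer genes were changed there than were called in these data, and spread was assigned regardless of a gene's level. The simulation therefore gives no miss rate for the fit of these data. A gene that was not called may still have changed.

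Alternatives changed the filter (no minimum, or 5 FPKM), the pseudocount (0.1 or 5 FPKM), the scaling, the trend, the time or label term, the Eif3j sum, the size rule (1.5-fold) and each library left out. Values in all 6 libraries are given for the most abundant member of each role, the largest changes each way with time and label, and the paralog sets; a few others, Eif3c and Eif3f among them, were chosen after their values were seen, as were the promoters printed. Members and lists were chosen with earlier results of these data known. Gene positions, symbols and promoter windows are from RefSeq (GRCm38.p6, the mm10 build); shared sequence was counted as 50-base sequences of the longest coding GENCODE M21 transcript. Of 63 member genes with such a transcript, 33 shared at least 1 sequence with another gene, 15 at least 10% and 5 at least 50%. Eif1 (31.6%), Eif3h (26.2%), Eif4a3 (24.4%), Eif3e (22.0%), Eif4e3 (12.3%) and Eif4a2 (11.5%) were among those with at least 10%, so their levels are also less certain. Python 3.11.15, numpy 2.4.6, pandas 2.3.3 and matplotlib 3.10.9 were used.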

Additional observations from a re-analysis of the deposited data

Results flagged for a closer look

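Among the members, 3 moved in opposite directions under the labels by at least 0.1 on the log2 scale each; with 1 library per group the difference of the responses was not tested. Eef1akmt2, a lysine methyltransferase of eEF1A, was at 10.6 FPKM at 6 h and 11.6 FPKM at 0 h under the Zak-KO label, and at 13.6 FPKM at 6 h and 10.4 FPKM at 0 h in WT, so the 6 h responses were -0.12 and 0.35 and their difference was -0.48. Eif3e, a TOP-encoded subunit of eIF3, was at 249 FPKM at 6 h and 312 FPKM at 0 h under the Zak-KO label, and at 320.5 FPKM at 6 h and 298 FPKM at 0 h in WT (responses of -0.32 and 0.10, difference -0.43). Eef2kmt was at 12.5 FPKM at 48 h and 11.2 FPKM at 0 h under the Zak-KO label, and at 8.35 FPKM at 48 h and 11.2 FPKM at 0 h in WT (responses of 0.14 and -0.38, difference 0.52). Counting responses of any size, 8 members had opposite signs at 6 h and 3 at 48 h. Opposite signs were not counted over all genes, so whether the members differ from other genes in this is not known.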

How the results depend on the processing

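No called member changed direction under the 16 alternatives to the fit. Of the members called, 27 of 40 higher and 3 of 5 lower at 6 h, 41 of 45 and 4 of 8 at 48 h, and 15 of 22 and 7 of 14 at 48 h against 6 h were called under every alternative. Over the libraries left out in turn, members called higher numbered 27 to 41 at 6 h, 41 to 45 at 48 h and 16 to 22 at 48 h against 6 h, and members called lower 3 to 7, 4 to 9 and 10 to 14; between the labels they numbered 0. With 1 library left out, a time keeps 1 library that is assumed to vary like the others. Lower calls were 8 at 6 h by upper quartile and 9 at 48 h against 6 h with no filter, where more genes were tested. With Eif3j1 and Eif3j2 kept apart, 1 member was called higher and 1 lower between the labels.

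Members at least 2-fold lower at 6 h numbered 1 with a pseudocount of 0.1 FPKM, a common sum or the upper quartile, against 0 as reported. Over all genes the shares were 1.11%, 1.005% and 1.46%, against 0.512%. Members at least 2-fold higher at 48 h numbered 12 with a common sum and 14 by upper quartile, against 18. Of all genes 14.4% and 14.7% were, against 16.4%. A 1.5-fold rule gave 25 members higher and 2 lower at 6 h (14.2% and 8.29% of all genes). At 48 h it gave 34 higher and 4 lower (26.0% and 20.7% of all genes). A common sum moved the median of all genes at 48 h to -0.08, against 0.03 as deposited, and gave member medians of 0.49 (Zak-KO label) and 0.61 (WT) at 48 h and -0.084 at 48 h against 6 h under the Zak-KO label (0.02 as deposited), where the median of all genes was -0.081 (0.015 as deposited). Upper-quartile scaling gave WT medians of 0.36 at 6 h and 0.60 at 48 h. The causes were not tested. The labels number no replicates, so the fit pairs the labels only by time; without the other term 39 and 45 members were called higher at 6 and 48 h. Depth is unknown, so the lowest members limit precision in a way that could not be measured.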

Other observations

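Enzymes that modify translation factors were counted among the other genes of translation. For comparison, 26.3% of all genes were called higher and 30.4% lower at 6 h, and 39% and 35.3% at 48 h. Of the 6 genes of diphthamide synthesis, the modification of eEF2 that diphtheria toxin uses, 5 were called higher at 6 h by limma and 3 at 48 h, with 0 lower (median log2 change 0.70 and 0.39). Both genes of hypusine synthesis, which activates eIF5A, were called higher at 6 h and 1 at 48 h. Of the 9 mitochondrial factors, 4 were called higher and 0 lower at 6 h, and 5 higher and 1 lower at 48 h. Of the 12 genes of mTORC1 and its neighbouring kinases, 2 were called higher (26.3% of all genes) and 2 lower (30.4%) at 6 h. At 48 h 2 were called higher (39% of all genes) and 4 lower (35.3%). Their medians were -0.03 at 6 h and -0.16 at 48 h.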
